A study of Mus musculus with 6 samples.

Results

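The Lgr receptors (Lgr4, Lgr5 and Lgr6), their secreted ligands the R-spondins (Rspo1 to Rspo4) and the membrane ubiquitin ligases Rnf43 and Znrf3 were followed in mouse ovarian surface epithelium, the cell layer that covers the ovary. The members were all probe sets that the platform annotation gives one of these gene symbols. They were 9 genes on 10 probe sets, of 22180 named genes and 41345 probe sets in all. Lgr5 had 2 probe sets and each other gene had 1. No member stood on a probe set shared between several symbols.

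The mice were females of the genotype Lgr5-eGFP-CreERT2 and were 8 to 12 weeks old, with no further treatment. Their cells were sorted for high or low EGFP, giving the EGFP-high and EGFP-low populations. Material of 8 mice was pooled for each array, and there were 3 arrays per population, described as technical replicates in the series' design text. In this knock-in line the Lgr5 locus drives EGFP, and the cassette disrupts the allele that carries it. Both populations carry it, and the labels do not give the zygosity. Amplified RNA was read on Affymetrix Mouse Gene ST 2.0 arrays. Values are log2 expression after RMA, so a difference of 1 is a doubling. Spread between these arrays may be technical and does not measure the spread between animals.

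R-spondins bind Lgr4, Lgr5 and Lgr6 together with Rnf43 or Znrf3. In the absence of R-spondin, both ligases tag Frizzled receptors for removal from the cell surface, which dampens Wnt signalling. With R-spondin bound, the ligases are cleared and Frizzled stays at the surface. Lgr5 and Rnf43 are themselves Wnt target genes in the intestine, and Lgr5 marks stem cells in several epithelia. In the mouse embryo, Rspo1 is required with Wnt4 for the gonad to develop as an ovary.

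The deposited columns are not 6 separate readings. EGFP-high 2 equalled the mean of EGFP-high 1 and 3, and each difference of group means equalled EGFP-high 3 minus EGFP-low 1, within 2e-04 for all 41345 probe sets. The columns hold 4 independent dimensions. No source used here gives the step behind these relations. They are met by 3 array sets inferred from the values: EGFP-low 1 with EGFP-high 1, EGFP-low 2 and 3 with EGFP-high 3, and EGFP-high 2 alone. The limma fit reported here had group and array set as terms and 2 residual degrees of freedom, and all intervals are its 95% limits. A fit with group alone counts 4 residual degrees of freedom, although the values hold only 2 residual dimensions once the group means are taken out. Its p-values are therefore too small and its limits too narrow, and its calls are given only where they differ. The SD of a population's 3 arrays is given with each mean, but for EGFP-high it rests on 2 separate columns.

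The labelled cell type and other cell types were checked first. Surface epithelium and mesothelium markers were well above background in both populations. The uroplakin Upk3b averaged 10.84 in EGFP-high and 10.69 in EGFP-low arrays, and the transcription factor Wt1 9.84 and 9.63. Of 12 such markers, 11 were above 0 in high minus low. Over all 22180 genes, 11927 were above 0 and 10253 below. Of 10 leukocyte markers 9 were lower in EGFP-high cells, as were 7 of 8 stromal, 6 of 7 granulosa and 3 of 5 theca and luteal markers. Summed on the linear intensity scale, in arbitrary units, surface epithelium and mesothelium markers ranged from 11703 to 12079 in EGFP-high and from 9689 to 10055 in EGFP-low arrays. Theca and luteal markers ranged from 575 to 603 in EGFP-high and from 837 to 1112 in EGFP-low arrays. Leukocyte markers ranged from 132 to 147 in EGFP-high and from 199 to 557 in EGFP-low arrays, stromal markers from 617 to 625 in EGFP-high and from 694 to 998 in EGFP-low arrays. Granulosa markers ranged from 131 to 194 in EGFP-high and from 224 to 397 in EGFP-low arrays. Such linear sums weigh the brightest genes most and are not shifts of whole lists. In the stromal sum the brightest was Dcn, which averaged 8.75 in EGFP-high and 8.97 in EGFP-low arrays. In the leukocyte sum of the EGFP-low arrays it was Lyz2. Oocyte markers ranged from 72.6 to 75.8 in EGFP-high and from 85.6 to 90.6 in EGFP-low arrays. Except for Gdf9 in EGFP-high arrays (4.33), their means were 2.39 to 3.90, below the dim reference described with the ligands. The median of the reference probe sets was itself 1.96 to 1.99 in EGFP-high and 2.02 to 2.18 in EGFP-low arrays. The part of background in the oocyte sums was not tested. Endothelial markers (276 to 309 and 263 to 289) and smooth muscle markers (196 to 225 and 176 to 240) overlapped between the EGFP-high and EGFP-low arrays. The pan-leukocyte gene Ptprc stood at 2.06 in EGFP-high and 2.43 in EGFP-low arrays, near the median of the olfactory reference probe sets described with the ligands. Another leukocyte marker, Lyz2, averaged 2.98 in EGFP-high and read 6.84, 8.01 and 5.41 in EGFP-low arrays, a difference of −3.77 (−5.74 to −1.80). It passed the adjusted threshold with group alone only (limma adjusted p = 0.038). The 1 leukocyte marker that was not lower, Cd68, differed by 0.07 (−0.97 to 1.10). The steroidogenic enzyme Cyp11a1 averaged 4.02 in EGFP-high and 8.76 in EGFP-low arrays. These markers did not all go one way: Star, the cholesterol carrier of steroidogenesis, named after its values were seen, averaged 9.07 in EGFP-high and 8.74 in EGFP-low arrays. Star made up 90.3% to 92.2% of the theca and luteal sum in EGFP-high and 38.9% to 48.8% in EGFP-low arrays, and without it the sum ranged from 44.7 to 58.5 in EGFP-high and from 428 to 680 in EGFP-low arrays. The part of these cells in the differences below was not tested, and fewer cells of a type cannot be told apart from less RNA per cell.

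Over all 41345 probe sets, limma with the array-set term called 0 (0.00%) at an adjusted p under 0.05. At an unadjusted p under 0.05 it had 1987 (4.81%), of which 828 (2.00%) were higher in EGFP-high cells. No other tool was run. Of the 10 member probe sets, 0 passed the adjusted threshold and 3 were higher at an unadjusted p under 0.05: both of Lgr5 and that of Lgr6. With group as the only term, whose p-values are too small, the same 3 passed the adjusted threshold, where the background was 4.15% in either direction and 2.03% higher. Lgr5 was the sorted locus. Of the 8 other member probe sets, only that of Lgr6 had an unadjusted p under 0.05 in the reported fit. After adjustment that fit called 0 of the 8, and the fit on group alone called only Lgr6. The array values of the populations did not overlap for 4 of the 10, or 2 of the 8 without Lgr5, against a background of 31.9% (16.3% higher in EGFP-high).

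**Figure D1:**
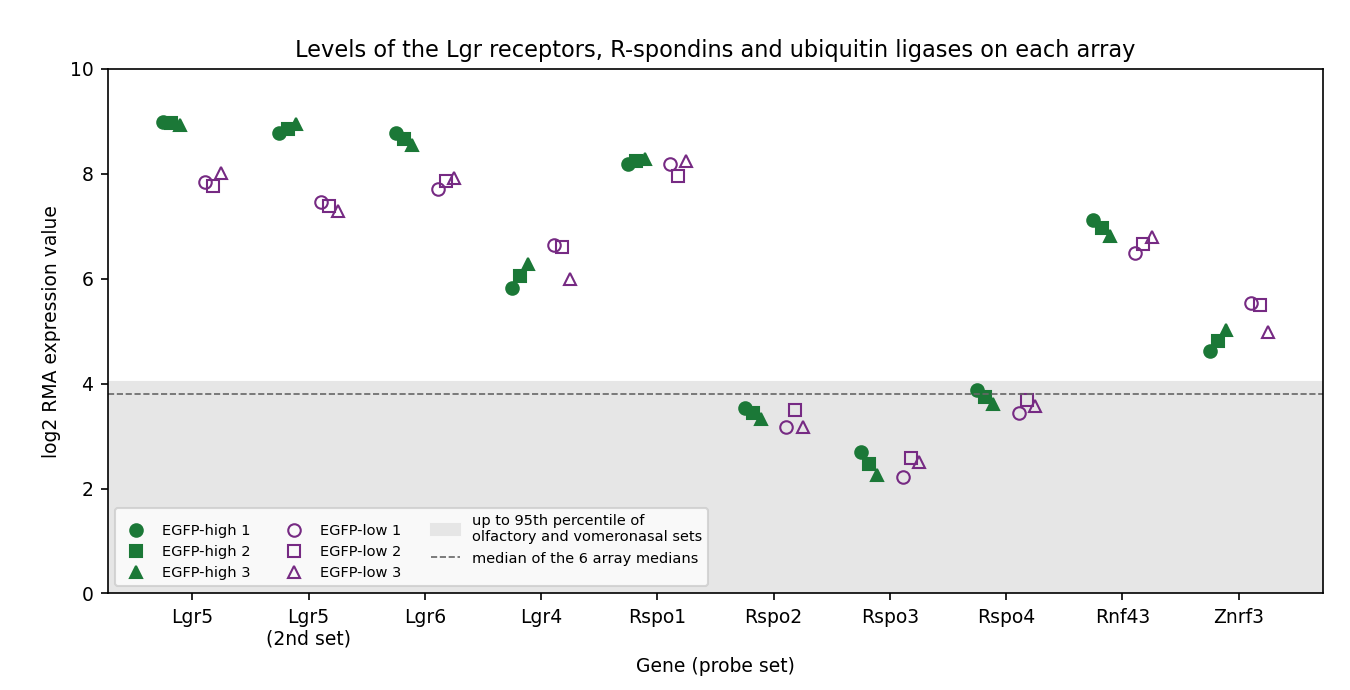
Log2 RMA value of each member probe set (y axis) on the 3 EGFP-high arrays (filled) and the 3 EGFP-low arrays (open). The grey band reaches to the highest 95th percentile of olfactory and vomeronasal receptor probe sets, and the dashed line is the median of the array medians. Rspo2, Rspo3 and Rspo4 lie within the band on all arrays. Both Lgr5 probe sets and Lgr6 are apart between the populations, and so is Rnf43, by 0.02.

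Lgr5, the receptor whose locus drives EGFP, read 8.996, 8.97 and 8.94 in the EGFP-high arrays, against 7.84, 7.76 and 8.01 in the EGFP-low arrays. All EGFP-high arrays lay above all EGFP-low arrays, with 0.93 between the nearest. Lgr5 averaged 8.97 ± 0.030 in EGFP-high and 7.87 ± 0.13 in EGFP-low cells (SD, n = 3 each). The difference was 1.10 on the log2 scale, or 2.14-fold, with limits of 0.56 and 1.63. This difference checks the labels, since cells were sorted on this locus. EGFP-low cells were not free of Lgr5 signal: their Lgr5 probe set was brighter than at least 94.8% of all probe sets on every array.

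The second Lgr5 probe set, which the authors' deposited table pairs with an Ensembl transcript, read 8.78, 8.86 and 8.94 in EGFP-high arrays. It read 7.46, 7.39 and 7.28 in EGFP-low arrays, again without overlap. It averaged 8.86 ± 0.081 in EGFP-high and 7.38 ± 0.089 in EGFP-low cells (SD, n = 3 each). The difference was 1.48, or 2.80-fold (0.96 to 2.01). Both Lgr5 probe sets therefore gave the same direction with overlapping limits. Probe sets numbered next to this second one belong mostly to genes of the opposite strand from those next to the first. In the authors' deposited table the ratios of high over low were 2.10 and 2.74 for the first and the second Lgr5 probe set.

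Lgr6, a paralogue of Lgr5 that marks stem cells of the hair follicle and skin in mice, was the member nearest to Lgr5 in its profile over the 6 arrays. It read 8.78, 8.66 and 8.55 in EGFP-high arrays, against 7.72, 7.86 and 7.92 in EGFP-low arrays. The populations did not overlap, and the nearest arrays were 0.62 apart. Lgr6 averaged 8.66 ± 0.12 in EGFP-high and 7.83 ± 0.11 in EGFP-low cells (SD, n = 3 each), a difference of 0.83 or 1.78-fold (0.28 to 1.38). With the array-set term limma gave an unadjusted p of 0.011, which was 0.958 after adjustment. With group alone the adjusted p was 0.024. The call with group alone was kept without EGFP-low replicate 2 or 3 (adjusted p = 0.036 and 0.033). It was lost without any one of the 4 other arrays, the highest adjusted p being 0.237. In the fit with the array-set term, leaving out replicate 1 of either population gave a difference of 0.65 for Lgr6. Its limits then spanned 0, with a lower limit of −0.195. They left out 0 when any other single array was dropped. Of all probe sets, 96.2% differed by no more than Lgr6 between the populations. The authors' deposited table lists a ratio of 1.80 for it.

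Lgr4, the third receptor of the group and the most widely expressed of them across tissues, had a negative difference with limits that span 0. Its arrays read 5.82, 6.05 and 6.28 in EGFP-high and 6.64, 6.61 and 5.99 in EGFP-low cells. The populations overlapped, because EGFP-low 3 lay among the EGFP-high arrays. Lgr4 averaged 6.05 ± 0.23 in EGFP-high and 6.41 ± 0.37 in EGFP-low cells (SD, n = 3 each), a difference of −0.36 (−1.17 to 0.44). The limits hold both a fall larger than 2-fold and a small increase. The difference between Lgr6 and Lgr4 in their change was not tested.

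The promoters of Lgr5, Lgr6 and Lgr4 were to be printed, and a sequence was available for Lgr6 and Lgr4. No link of these sequences to the differences was tested. The sequences are the 250 bases before the annotated start, from RefSeq (GRCm38.p6), and 5 of the 9 members had an entry in that table. Lgr5, Rspo2, Rspo3 and Znrf3 had none. Lgr6 lies on the minus strand at chr1:135105277-135105526 and Lgr4 on the plus strand at chr2:109917397-109917646. Capitals mark the GC box (GGGCGG) and the CCAAT box (CCAAT), each searched on both strands and chosen after the sequences were read.
Lgr6: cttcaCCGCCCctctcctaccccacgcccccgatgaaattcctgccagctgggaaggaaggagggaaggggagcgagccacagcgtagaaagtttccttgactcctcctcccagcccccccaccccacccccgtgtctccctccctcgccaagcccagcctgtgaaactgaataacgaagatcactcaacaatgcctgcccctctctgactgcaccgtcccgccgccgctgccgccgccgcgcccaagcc
Lgr4: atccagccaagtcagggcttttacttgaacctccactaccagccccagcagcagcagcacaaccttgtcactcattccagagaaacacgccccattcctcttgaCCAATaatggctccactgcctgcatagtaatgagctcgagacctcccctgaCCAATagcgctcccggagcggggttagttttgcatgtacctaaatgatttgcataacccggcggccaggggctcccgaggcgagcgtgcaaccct
The Lgr6 window holds 1 GC box and no CCAAT box, with 65.2% G and C. The Lgr4 window holds 2 CCAAT boxes and no GC box, with 55.6% G and C. A GC box is in 32.7% and a CCAAT box in 33.8% of all 32851 promoter windows of that length. The TCF/LEF letters CTTTGAT or CTTTGAA, on either strand, are in 7.48% of all windows and in 0 of the 6 windows of the members, of which Rnf43 had 2. That says only that these letters are not in these windows.

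Among the ligands, Rspo1 alone stood above the dim reference on every array. That reference was the 95th percentile of 1405 probe sets of olfactory and vomeronasal receptor genes, which this tissue is not known to use. It lay between 3.80 and 4.03 on the arrays, and the median of the same probe sets between 1.96 and 2.18. Rspo1 read 8.19, 8.24 and 8.29 in EGFP-high arrays, against 8.19, 7.97 and 8.25 in EGFP-low arrays. The populations overlapped, and on each array this probe set was brighter than at least 95.5% of all. Rspo1 averaged 8.24 ± 0.050 in EGFP-high and 8.14 ± 0.15 in EGFP-low cells (SD, n = 3 each). The difference was 0.10 (−0.45 to 0.65), and was −0.004 after cyclic loess between arrays, so no direction is given.

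The other three R-spondins were dim. Rspo2, which in mouse ovaries is made by oocytes, read 3.54, 3.44 and 3.33 in EGFP-high arrays, against 3.17, 3.49 and 3.18 in EGFP-low arrays. Rspo3, a ligand with a role in vessel development in the mouse embryo, read 2.69, 2.48 and 2.26 in EGFP-high and 2.21, 2.58 and 2.50 in EGFP-low arrays. Rspo4, which human genetics ties to nail formation, read 3.88, 3.75 and 3.62 in EGFP-high and 3.44, 3.69 and 3.58 in EGFP-low arrays. The populations overlapped for each of these ligands. Rspo2 and Rspo3 were above the 95th percentile of the olfactory reference on 0 of 6 arrays and Rspo4 on 1, although all 3 were above its median on all 6. Their differences were 0.16 (−0.43 to 0.74) for Rspo2, 0.05 (−0.61 to 0.70) for Rspo3 and 0.18 (−0.39 to 0.74) for Rspo4. A change in a transcript so near the dim reference may not be detectable on these arrays.

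The differences of the ubiquitin ligases had opposite signs, and neither passed the test. The difference between Rnf43 and Znrf3 in their change was not tested. Rnf43 read 7.11, 6.96 and 6.81 in EGFP-high arrays, against 6.49, 6.65 and 6.79 in EGFP-low arrays. The populations were apart by 0.02 only, between EGFP-high 3 and EGFP-low 3. Rnf43 averaged 6.96 ± 0.15 in EGFP-high and 6.65 ± 0.15 in EGFP-low cells (SD, n = 3 each). The difference was 0.32 (−0.27 to 0.90), and the limma adjusted p was 0.958, or 0.182 in the fit on group alone.

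Znrf3, the other ligase, read 4.62, 4.82 and 5.02 in EGFP-high arrays, against 5.54, 5.49 and 4.98 in EGFP-low arrays. The populations overlapped by 0.04, since EGFP-low 3 was below EGFP-high 3. Znrf3 averaged 4.82 ± 0.20 in EGFP-high and 5.34 ± 0.31 in EGFP-low cells (SD, n = 3 each). The difference was −0.52 (−1.25 to 0.21), and the limma adjusted p was 0.958, or 0.164 in the fit on group alone. For both ligases the limits with group alone left out 0, at 0.02 to 0.61 for Rnf43 and −0.98 to −0.06 for Znrf3.

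**Figure D2:**
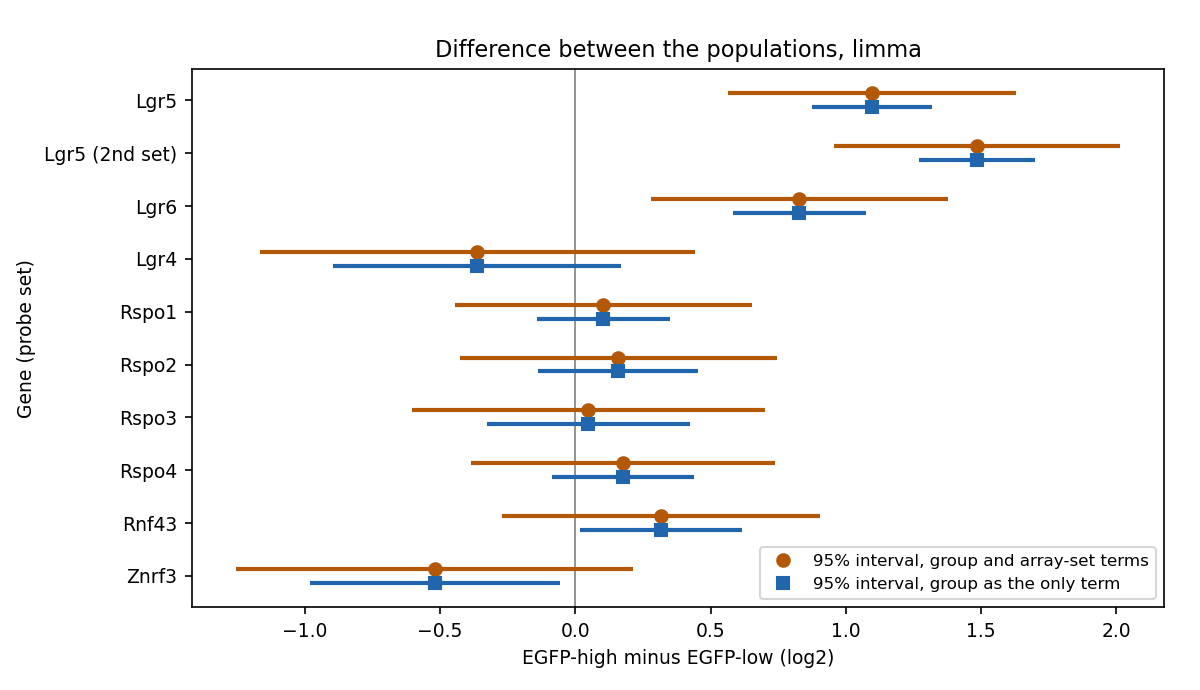
EGFP-high minus EGFP-low (x axis, log2) for each member probe set, with 95% limits from limma with the array-set term (circles) and with group as the only term (squares). With the array-set term the limits leave out 0 for both Lgr5 probe sets and for Lgr6, and span it for the 7 others.

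The 2 contrasts that the array sets allow differed in size for most members. EGFP-high 1 minus EGFP-low 1 was 1.16 for Lgr5 and 1.06 for Lgr6, and EGFP-high 3 minus the mean of EGFP-low 2 and 3 was 1.05 for Lgr5 and 0.65 for Lgr6. Both contrasts were thus positive for both receptors, which follows from groups that do not overlap. Lgr4 differed by −0.82 in the first and −0.02 in the second, and Znrf3 by −0.92 and −0.22. Rnf43 differed by 0.62 and 0.08. Rspo3 changed sign, at 0.48 and −0.28. Rspo2 differed by 0.37 and −0.0009 and Rspo4 by 0.43 and −0.016. For Lgr4, Znrf3, Rnf43, Rspo2 and Rspo4 most of the difference thus lay between the first replicates, whereas Rspo1 differed by 0.003 and 0.18. The second contrast is also the value of the fit without replicate 1 of either population.

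**Figure D3:**
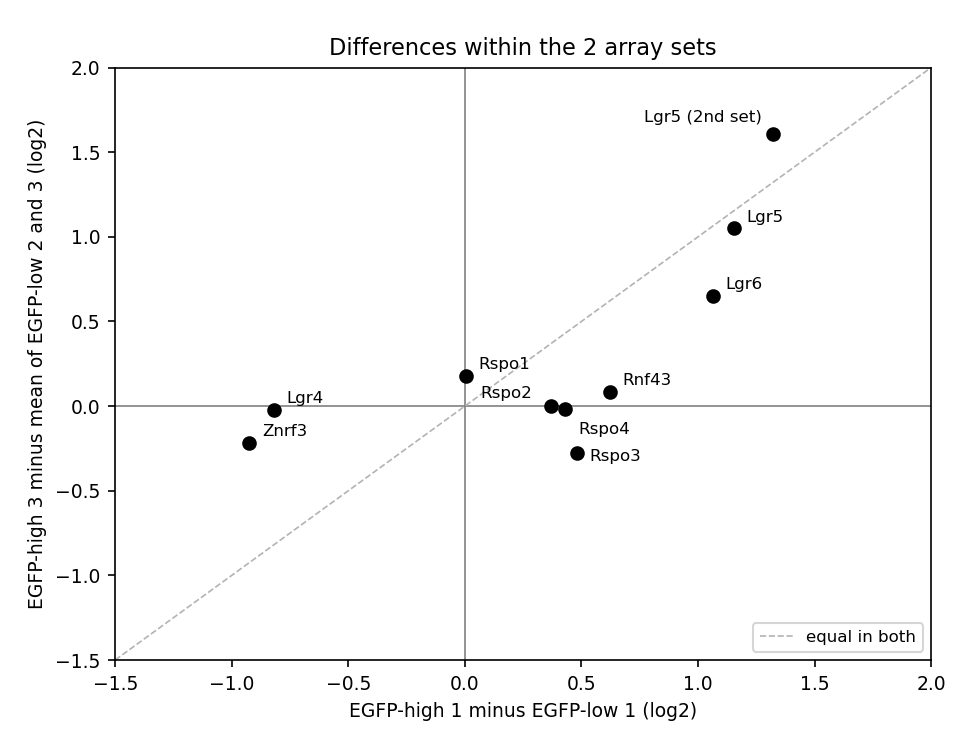
Difference of each member probe set within the first array set (EGFP-high 1 minus EGFP-low 1, x axis, log2) and within the second (EGFP-high 3 minus the mean of EGFP-low 2 and 3, y axis, log2), with the line of equal values dashed. Lgr5 and Lgr6 are positive on both axes, while Lgr4, Rspo2 and Rspo4 lie near 0 on the y axis.

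Genes with the profile most like Lgr5 were found by the root mean square difference between profiles over the 6 arrays, each with its own mean subtracted, among 18424 named probe sets. The nearest 5 were the LIM homeobox gene Isl1 (0.020), Shcbp1 (0.044), the myosin light chain Myl9 (0.068), Rex2 (0.084) and Ttll10 (0.088), in log2 units. Isl1 averaged 5.90 in EGFP-high and 4.78 in EGFP-low arrays, a difference of 1.12 (0.57 to 1.66) beside the 1.10 of Lgr5. For Lgr6 the nearest were Tmem231 (0.021), the galectin Lgals2 (0.045), Kank3 (0.050), the mitotic kinase Ttk (0.054) and Lce1h (0.058). Lgals2 averaged 8.81 in EGFP-high and 7.95 in EGFP-low arrays, a difference of 0.86 (0.34 to 1.38). The Lgr5 and Lgr6 profiles themselves differed by 0.16. With 4 dimensions over so many probe sets, close profiles are a description of these columns. The genes were picked for this likeness, so differences and limits near those of Lgr5 and Lgr6 were fixed in advance. Rex2 averaged 2.61 in EGFP-high and 1.65 in EGFP-low arrays, both below the dim reference. Shcbp1 (2.97), Lce1h (3.66) and Ttk (3.90) averaged below it in EGFP-low arrays.

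Other genes of the pathway were read from 6 lists, in which 59 of 63 genes other than the members had a named probe set. Limma with the array-set term called 0 of the 59 at the adjusted threshold and 5 at an unadjusted p under 0.05, 3 higher and 2 lower, where the background over genes was 3.38%. With group alone 5 of the 59 passed the adjusted threshold, all higher, against 3.71% of genes in either direction and 2.14% higher. Their median difference was 0.11, beside 0.02 over all genes. Of the 59, 36 were above 0, beside 11927 of all 22180 genes.

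Of the 6 lists, the Wnt target genes had the highest median. Its median was 0.33 over 12 measured genes, 8 above 0 and 4 below. Those below were Myc (−0.35), Ascl2 (−0.17), Notum (−0.15, with 0.11 for its second probe set) and Sox9 (−0.14), each with limits that span 0. Arrays did not overlap for 9 of the 12, 8 of them higher in EGFP-high cells, where the background over genes was 33.2% (19.3% higher). Tnfrsf19, also called Troy and a Wnt target in intestinal stem cells, read 7.03, 6.92 and 6.81 in EGFP-high and 5.61, 5.43 and 6.13 in EGFP-low arrays, a difference of 1.20 (0.45 to 1.95). Sp5, a zinc finger repressor induced by Wnt, read 5.31, 5.30 and 5.29 in EGFP-high and 4.71, 4.77 and 4.68 in EGFP-low arrays, a difference of 0.58 (0.08 to 1.08). Both were apart between populations. Axin2, the scaffold that feeds back on the pathway, read 6.92, 6.86 and 6.80 in EGFP-high and 6.35, 6.46 and 6.42 in EGFP-low arrays. That is a difference of 0.45 (−0.06 to 0.96), and 0.31 (−0.23 to 0.85) for its second probe set. The transcription factor Lef1 differed by 0.44 (−0.13 to 1.01). Tnfrsf19, Sp5 and Axin2 passed the adjusted threshold of limma with group alone (0.036, 0.023 and 0.039) and not with the array-set term. The median of the list was 0.18 without replicate 1 of either population.

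Wnt receptors, the proteins that Rnf43 and Znrf3 remove, had a median of 0.15 over 12 genes, 8 above 0. Of these, 0 passed the adjusted threshold in either fit, and 0 had an unadjusted p under 0.05 with the array-set term, against 2 with group alone, Fzd4 and Fzd7. Fzd7, a Frizzled of intestinal stem cells in mice, differed by 0.41 (−0.25 to 1.08) and had the smallest p of the list with the array-set term. Fzd4 differed by 0.24 (−0.27 to 0.74), Fzd9 by 0.24 (−0.48 to 0.97) and Fzd10 by −0.26 (−1.01 to 0.48). The co-receptor Lrp6 averaged 7.86 in EGFP-high and 7.92 in EGFP-low arrays, with a second probe set at −0.14 (−1.06 to 0.79). With the array-set term no receptor of the list had limits that left out 0, while with group alone those of Fzd4 (0.07 to 0.41) and Fzd7 (0.02 to 0.80) did. Without replicate 1 of either population the median of the list was −0.003.

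The cytoplasmic transducers, from Dvl adaptors to Tcf7l2, had a median of 0.13 over 11 genes, with 10 above 0 and 0 past any threshold. The kinase Gsk3b differed by 0.27 (−0.48 to 1.02), the scaffold Axin1 by 0.19 (−0.36 to 0.74), Btrc by 0.17 (−0.37 to 0.71) and Dvl2 by 0.15 (−0.40 to 0.69). Among ligands and partners of the module the median was −0.0003 over 14 genes, 7 on each side. Wnt6 read 5.38 in all EGFP-high arrays, against 4.99, 5.03 and 4.96 in EGFP-low arrays, a difference of 0.38 (−0.12 to 0.88). It passed with group alone (limma adjusted p = 0.042). Wnt2b averaged 9.41 in EGFP-high and 9.01 in EGFP-low arrays, a difference of 0.40 (−0.13 to 0.93). The glypican Gpc4 differed by −0.51 (−1.20 to 0.18).

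Genes of ovary determination that act with Rspo1 went both ways, with 3 of 7 above 0 and a median of −0.11, Rspo1 itself left out. The median was 0.11 without replicate 1 of either population and 0.24 without EGFP-high replicate 3, so no direction is given. Nr0b1, the nuclear receptor Dax1, read 6.85, 6.86 and 6.86 in EGFP-high and 5.91, 6.10 and 5.73 in EGFP-low arrays, a difference of 0.94 (0.38 to 1.51). It passed the adjusted threshold of limma with group alone (0.023) and not with the array-set term. Wnt4 differed by 0.27 (−0.28 to 0.82). Follistatin, Fst, read 3.83, 4.28 and 4.74 in EGFP-high and 6.04, 5.16 and 5.54 in EGFP-low arrays, a difference of −1.29 (−2.35 to −0.24). The granulosa transcription factor Foxl2 differed by −0.65 (−1.31 to 0.02), with an EGFP-high mean of 3.77, just under the dim reference. Fst and Foxl2 also belong to the granulosa markers, whose summed level was lower in EGFP-high arrays as given above. Of the other leucine-rich repeat receptors, the follicle-stimulating hormone receptor Fshr, another granulosa marker, differed by −1.22 (−2.31 to −0.13). It read 2.16, 2.63 and 3.11 in EGFP-high and 4.33, 3.83 and 3.40 in EGFP-low arrays, above the dim reference on EGFP-low 1 only. Rxfp1 differed by −0.26, Tshr by −0.21 and Rxfp2 by 0.15, each with limits that span 0 and each below the dim reference on every array. The median of that list was −0.24 over 4 genes, and with signal this dim it may not measure a change in the transcripts.

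**Figure D4:**
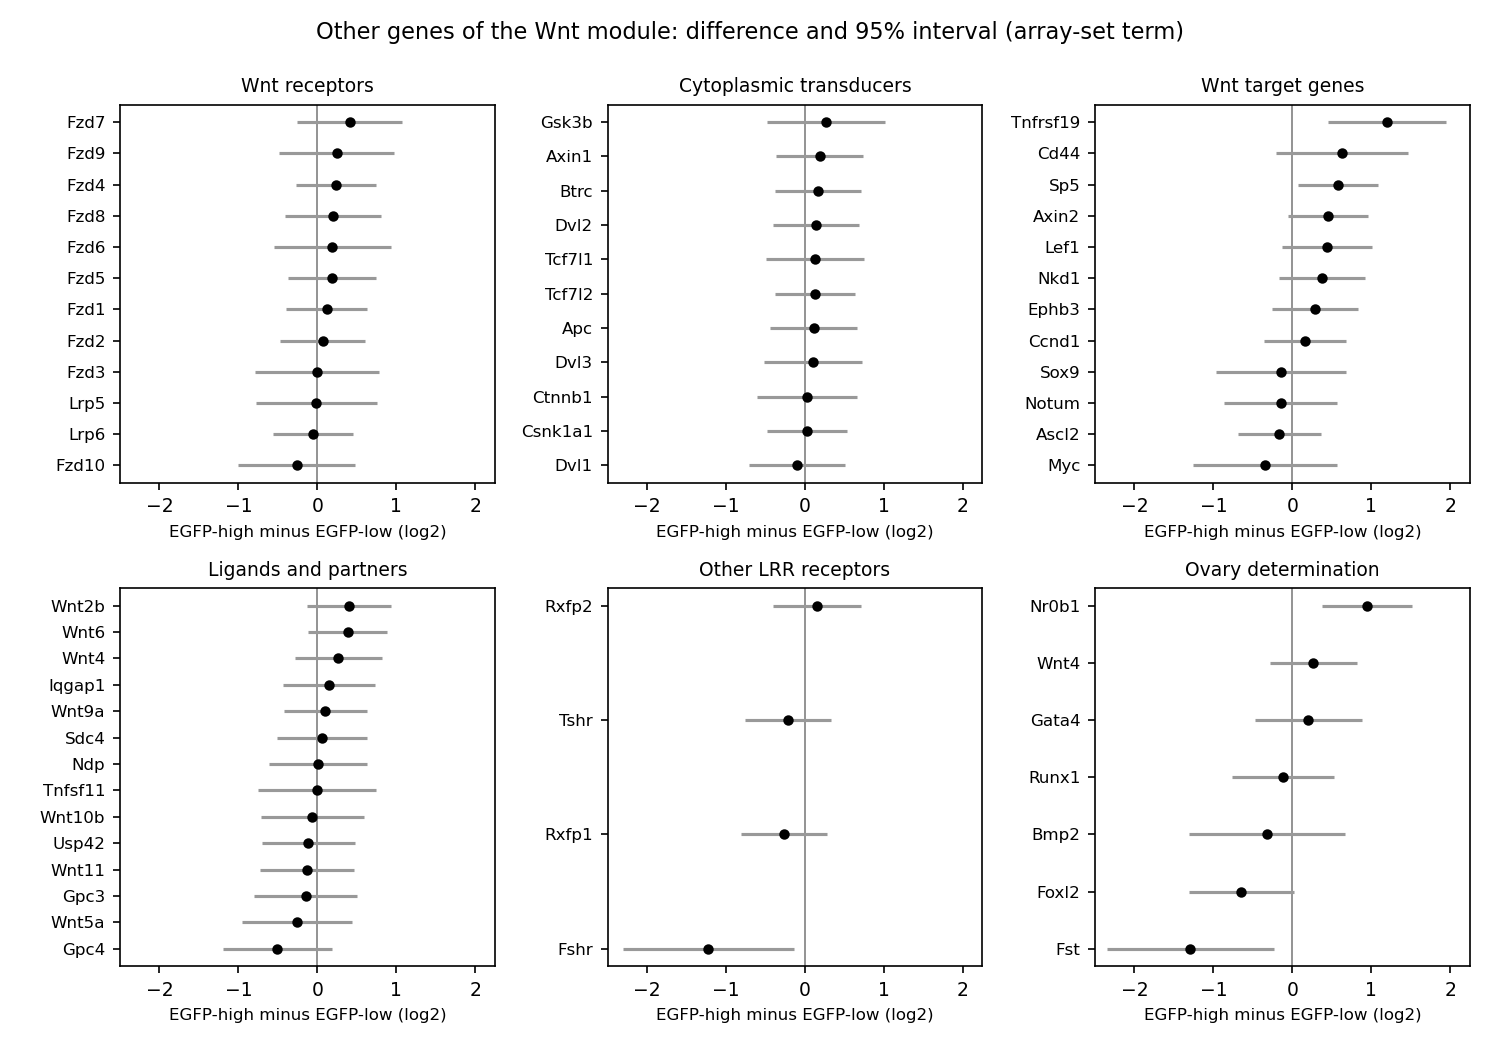
EGFP-high minus EGFP-low (x axis, log2) with 95% limits from limma with the array-set term, for each measured gene of the 6 lists, ordered by the difference within each panel. Limits leave out 0 for Tnfrsf19, Sp5, Nr0b1, Fshr and Fst. Fshr was above the dim reference on EGFP-low 1 only.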

How the data were processed

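The authors deposited log2 expression values of 41345 probe sets on 6 arrays. Affymetrix Expression Console and RMA are named, per the submitters' processing notes, without versions. No genome build is given in the sources used here. In a second table the authors deposited a linear ratio and a signed fold score of high over low for 1134 probe sets, per the file headers, of which the ratio was read for members. No column lacked a sample (0 columns). Of the probe sets, 23521 had 1 gene symbol, 1820 several and 16004 were unlisted.

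High minus low was tested over all probe sets with limma 3.58.1 in R 4.3.3 (lmFit, eBayes, two-sided, Benjamini-Hochberg, threshold 0.05), with group and inferred array set as terms. The fit was also run on simulated data. Their columns did not obey the relations of the deposited columns and their changes were larger than those of the members. That run therefore does not check the fit in the setting of these data. No filter or further normalization was applied. Members were left out of the lists. In lists, each gene was read from its probe set with the highest mean. Lists were not tested as sets, and the number of arrays limits the precision. Named genes were the members, the 4 list genes with the smallest p, Axin2, Wnt4, Foxl2, Lrp6, the defining markers and the 5 nearest profiles. A few other markers and the Wnt targets below 0 were named after their values were seen. Alternatives were group alone, a replicate block, 1 probe set per gene, 3 scalings, a filter on dim probe sets, a variance trend and leaving out arrays. Members, lists and the array-set term were chosen with earlier results of these data known.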

Additional observations from a re-analysis of the deposited data

How the results depend on the processing

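No member passed the adjusted threshold under any alternative that kept the array-set term. With group as the only term the differences were the same (1.10 and 1.48 for Lgr5, 0.83 for Lgr6), these 3 probe sets passed, and 1715 of all probe sets were called, with p-values that are too small because the values hold fewer residual dimensions than that fit counts. With 1 probe set per gene 1 gene was called, and it was no member. Leaving out 1 array at a time, with either model, gave 1.04 to 1.17 and 1.32 to 1.61 for the Lgr5 probe sets and 0.65 to 1.06 for Lgr6. Some of these outcomes were fixed in advance. With the array-set term, EGFP-high 2 stands alone in its set, so leaving it out cannot change the fit. Leaving out replicate 1 of either population gives the same fit. With group alone, the column relations keep the difference unchanged without EGFP-high 2, and equal without replicate 1 of either population. With group alone and without EGFP-low replicate 2 or 3, the 3 probe sets still passed (1.04 and 1.17, 1.49 and 1.44, 0.84 and 0.87), as did 2908 and 2501 of all. Without EGFP-low replicate 1, EGFP-high replicate 1 or EGFP-high replicate 3 that fit called 4 probe sets each time, and without EGFP-high replicate 2 it called 0, with 0 members in each. Ranges that crossed 0 were −0.000865 to 0.37 for Rspo2, −0.28 to 0.48 for Rspo3 (−0.061 with group alone and without replicate 1 of either population) and −0.016 to 0.43 for Rspo4, and Rspo1 was −0.0038 with cyclic loess. Lgr4 (−0.82 to −0.02), Rnf43 (0.08 to 0.62) and Znrf3 (−0.92 to −0.22) kept their direction. Rspo2, Rspo3 and Rspo4 were below the brightness limit of the dim filter and had no value there. List medians moved by more than their spread between arrays in these cases. Without replicate 1 of either population they were −0.003 for Wnt receptors, 0.18 for targets, −0.34 for the other leucine-rich repeat receptors and 0.11 for ovary determination genes. Without EGFP-high replicate 3 these last lists were at −0.10 and 0.24. With dim probe sets left out, ligands and partners were at 0.10 and ovary determination genes at 0.046, against −0.0003 and −0.11 over all their measured genes, and quantile normalization gave −0.17 for the other receptors. The cause was not tested. Whether the replicate number of the titles pairs the arrays could not be judged: deviations of same-numbered arrays correlated at −1, −0.005 and −0.28, but the column relations fix the first of these and leave EGFP-high 2 next to no deviation. The fit with a replicate block called 0 of 10 members and 0 of all probe sets (smallest adjusted p 0.074), and its differences were those of the fit with array sets. The equal group sizes and the column relations fix this equality in advance, as they do for group alone, so it is no check of the differences. Fits that left out arrays after dropping the array-set term were chosen after seeing the data. Precision is limited by 2 residual degrees of freedom and, for Rspo2 to Rspo4, by signal near the dim reference.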

Other observations

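The strand of the second Lgr5 probe set was looked at through its neighbours in the platform's numbering, a choice made after its values were seen. Of the 20 named probe sets around the first Lgr5 probe set, 18 had a strand in the RefSeq promoter table (GRCm38.p6), and all 18 were on the minus strand. Around the second, 14 of the 15 with a strand were on the plus strand and 1 was on the minus strand. The probe set numbered next after it is named A930009A15Rik, a plus-strand gene that lies inside the Lgr5 locus in that table. A930009A15Rik read 5.18, 5.64 and 6.10 in EGFP-high arrays, against 5.32, 4.07 and 5.20 in EGFP-low arrays. The populations overlapped, and the difference was 0.78 (−0.53 to 2.08), beside 1.48 for the second and 1.10 for the first Lgr5 probe set. Which strand the second probe set reads was not tested.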
